A study of Mus musculus with 15 samples.

Results

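The genes examined are 36 nuclear genes that encode aminoacyl-tRNA synthetases of the mouse, listed by symbol and found in GENCODE M21 among 55536 genes with an identifier. All 36 were in the count tables and all 36 passed the filter on low counts, which left 24262 genes for testing. They divide into 20 cytosolic enzymes and 16 enzymes of mitochondria, and the question was how both sets differed between CD8+ T cells primed with or without costimulation. OT-I CD8+ T cells, whose transgenic receptor recognises the SIINFEKL peptide of ovalbumin, came from Rag-deficient donors and were transferred into wild-type C57BL/6J recipients. Recipients in the Ag group received the peptide with rat IgG, and those in the Ag+Costim group received the peptide with agonist antibodies against the costimulatory receptors OX40 (CD134) and 4-1BB (CD137). The study used mice of both sexes, from young to mature adults. Donor CD8+ cells were sorted from spleen and lymph nodes at day 4 per the labels. The methods section gives a slightly shorter time. Each group held 5 libraries of poly(A) RNA, made without strand information. The study describes the libraries as biological replicates and counts them as mice. The 5 Naive libraries were not analysed here.

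An aminoacyl-tRNA synthetase attaches an amino acid to the tRNAs whose anticodons stand for it, the step that sets the genetic code before the ribosome acts. Mitochondria translate their own messages and use a separate set of enzymes, made from nuclear genes and imported, which bear the suffix 2. Several cytosolic enzymes assemble into a large multisynthetase complex around the scaffolds Aimp1, Aimp2 and Eef1e1. Activated T cells grow and divide quickly and raise protein synthesis, and synthetase genes are known targets of ATF4, the transcription factor of the amino acid response.

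Libraries differed in ways that the groups do not account for. Their totals of estimated counts ran from 59598556 to 449401065 in Ag and from 332290834 to 639070261 in Ag+Costim, values that StringTie estimates and that are not numbers of reads. Genes with a count numbered between 20714 and 51778 in Ag, lowest in replicates 2 and 5, and between 28727 and 30340 in Ag+Costim. All 8 CD8 T cell markers examined were above 1 CPM (estimated counts scaled to library size with TMM factors) in every library. Markers of other cells were present, those of B and erythroid cells most in some Ag libraries. Summed levels in Ag and Ag+Costim were 18.9 to 307 and 15.5 to 34.5 CPM for 6 B cell genes. The ranges were 14.7 to 1103 and 3.8 to 39.8 CPM for 6 erythroid genes, the highest in Ag replicate 3. The 7 myeloid genes went the other way, with 51.0 to 149 CPM (median 74.2) in Ag and 83.3 to 179 CPM (median 120) in Ag+Costim. CD4 T cell, platelet and NK cell markers each summed to at most 26.4 CPM in any library. The part of other cells in the results below was not tested.

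The fitted levels of the cytosolic synthetase messages were higher in Ag+Costim than in Ag for every gene, and those of the mitochondrial enzymes for most, but no single gene passed the test across all genes. All 20 cytosolic genes had a positive log2 fold change, from 0.19 for Qars to 1.02 for Iars, with a median of 0.70. Of the 16 mitochondrial genes 13 were positive, with a median of 0.40. Across the 8626 genes averaging at least 10 CPM the median was 0.24, and 75.6% of those genes were positive. Relative to that median the sets stood at 0.46 for the cytosolic and 0.16 for the mitochondrial genes. With plain total counts, where the median gene sat at 0.00, the medians were 0.50 and 0.18, with 19 and 12 positive genes.

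edgeR's quasi-likelihood test called 0 of the 36 members at a Benjamini-Hochberg adjusted p (BH, over all genes tested) under 0.05, and 0 of all 24262 genes, a share of 0%. The lowest BH of a member was 0.140, for Iars. At an unadjusted p under 0.05, 15 cytosolic and 7 mitochondrial genes were higher in Ag+Costim and none was lower, where 7.89% of all genes were higher and 10.7% lower. Every Ag+Costim library exceeded every Ag library for 8 members, 5 cytosolic (Iars, Lars, Mars, Nars and Vars) and 3 mitochondrial (Iars2, Nars2 and Vars2), which is 22.2% of members. The same held for 4.48% of all genes tested and for 11.3% of genes averaging at least 10 CPM, and no member lay entirely below, against 1.13% of all genes. DESeq2 called 7 members higher (Cars, Iars, Lars, Nars, Vars, Iars2 and Vars2). Of the 43379 genes to which it gave an adjusted p, it called 1.79% higher and 12.5% lower. limma voom with a quality weight for each library called 20 of 20 cytosolic and 12 of 16 mitochondrial genes higher and Lars2 lower, where it called 25.8% of genes higher and 26.4% lower. That fit gave Ag replicates 2 and 5 weights of 0.0986 and 0.0656, against 1.70 to 3.35 for the Ag+Costim libraries. Both replicates were the highest of Ag for most cytosolic genes, as described below. The shares of all genes given here for edgeR, DESeq2 and voom are not matched to the members for expression level. Over all 24262 genes tested the median log2 fold change was -0.32, against 0.24 over the genes averaging at least 10 CPM. In bulk RNA, fewer cells with a message and less of it in each cell cannot be told apart.

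**Figure D1:**
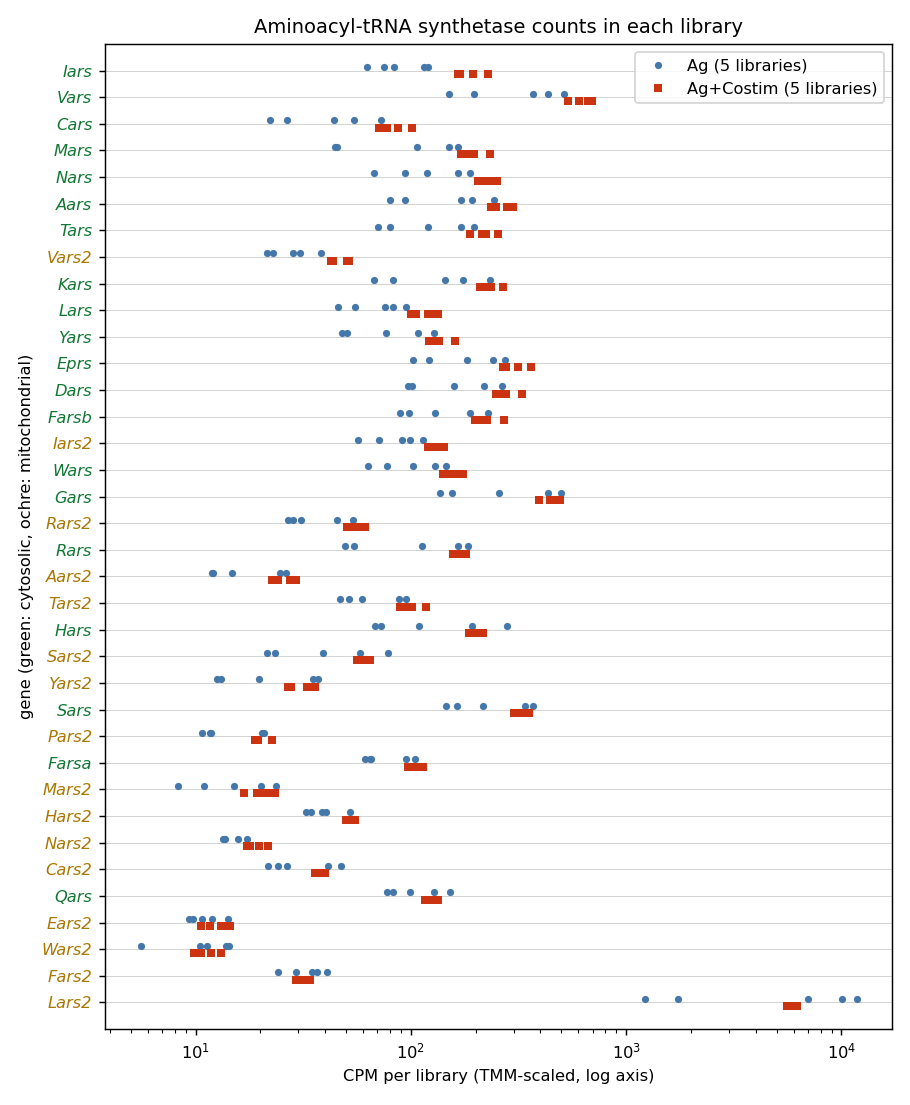
CPM of the 36 synthetase genes (log axis) in each of the 5 Ag (circles) and 5 Ag+Costim (squares) libraries, genes ordered by log2 fold change. Ag+Costim libraries sit close together for each gene, while the Ag libraries spread widely, with Lars2 far above the other genes.

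**Figure D2:**
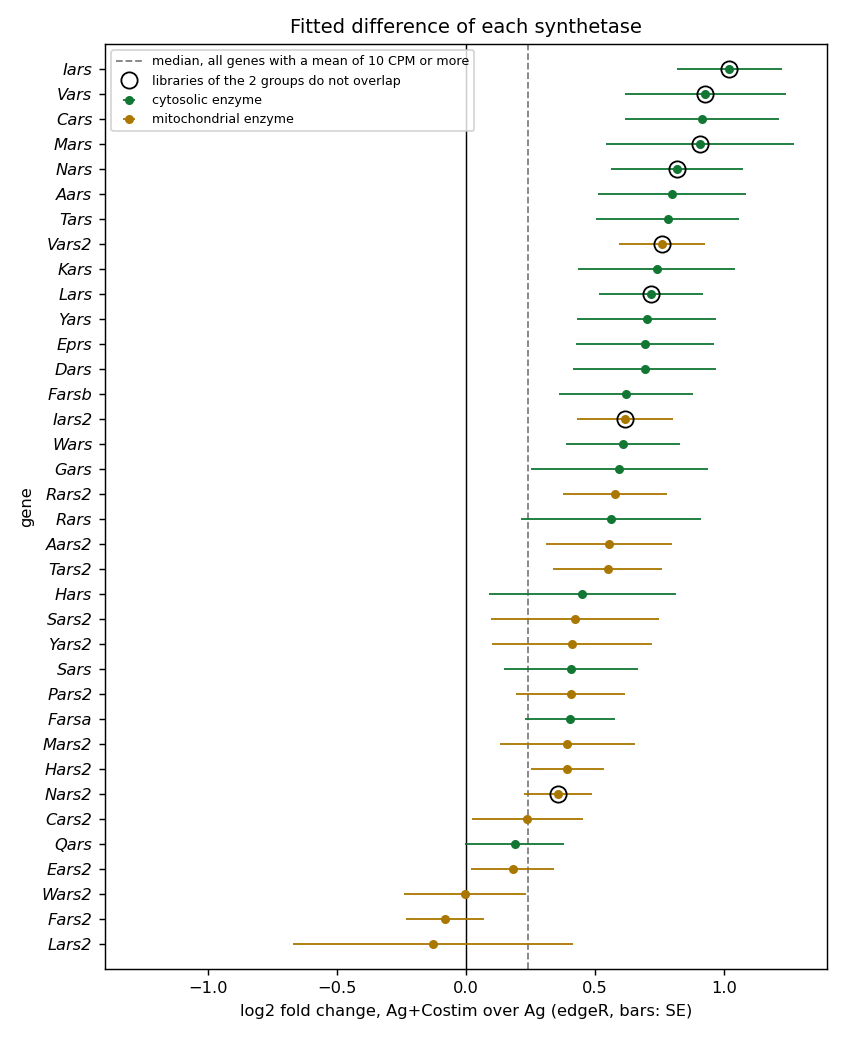
edgeR log2 fold change of Ag+Costim over Ag for each synthetase gene (horizontal axis, bars show SE), coloured by compartment. The 8 circled genes have no overlap between the libraries of both groups, and the dashed line at 0.24 is the median of the 8626 genes averaging at least 10 CPM.

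The spread lay within the Ag group. Replicates 1 and 4 of Ag were the lowest libraries of all 10 for 18 of the 20 cytosolic genes, and replicates 2 and 5 exceeded the other Ag libraries for 19. The first order held for 39.6% and the second for 53.8% of the 8626 genes averaging at least 10 CPM. Of the 16 mitochondrial genes, 7 and 10 did so. The median coefficient of variation of a cytosolic gene was 43.1% over the Ag libraries and 10.2% over the Ag+Costim libraries, beside 32% and 8.52% for a mitochondrial gene. Over the 8626 genes averaging at least 10 CPM the medians were 32.2% in Ag and 8.54% in Ag+Costim. All 5 Ag+Costim libraries exceeded Ag replicates 1, 3 and 4 for all 20 cytosolic genes and for 10 mitochondrial genes, and for 56.4% of the genes averaging at least 10 CPM. Without Ag replicates 2 and 5, edgeR called 33 of the 36 members higher and Lars2 lower (log2 difference -0.61, BH = 0.0170). In that fit it called 17.9% of 33480 genes higher and 30.8% lower, shares not matched to the members for expression level. Replicates 2 and 5 are the Ag libraries in which most cytosolic genes were highest, so leaving them out raises the difference and gives no independent support.

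Among the 8 enzymes of the multisynthetase complex, the median log2 fold change was 0.70 and 3 of 8 did not overlap between the groups, against the 11.3% of genes averaging at least 10 CPM. Iars, which charges isoleucine (chr13:49682100-49734267, plus strand), measured 62.3, 115, 119.8, 75.3 and 83.5 CPM in Ag replicates 1 to 5 and 168, 169, 166, 227 and 194 CPM in Ag+Costim replicates 1 to 5. Every Ag+Costim library was higher than the highest Ag library, and the fitted difference of 1.02 (SE 0.20, edgeR BH = 0.140) corresponded to a fold of 2.03. It passed DESeq2 with an adjusted p of 0.000771, and its exact permutation p over all assignments of 5 against 5 libraries was 0.00794, the smallest that the design allows and one that 5.6% of all genes reached (BH = 0.142 over all genes). Among Ag libraries it was highest in replicates 2 and 3, unlike most cytosolic members, which were highest in replicate 5.

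Mars charges methionine, including the initiator tRNA with which translation begins, and lies at chr10:127296221-127311786, minus strand. It measured 45.3, 149.7, 107, 44.5 and 166 CPM in Ag replicates 1 to 5 and 172, 184, 175, 233 and 196 CPM in Ag+Costim replicates 1 to 5. The groups did not overlap, although Ag replicate 5 came within a few CPM of the lowest Ag+Costim library, and the fitted log2 difference was 0.91 (SE 0.36, edgeR BH = 0.260). Its 3′ neighbour on the other strand, Ddit3, shares 68 exonic bases with it and differed in the opposite direction, with a mean of 14.5 CPM (Ag) and 7.33 CPM (Ag+Costim), a log2 difference of -0.99 and every Ag+Costim library below every Ag library.

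Lars charges leucine and is also known as a leucine sensor upstream of mTORC1. It measured 46.1, 95.0, 76.2, 55.2 and 83.0 CPM in Ag replicates 1 to 5 and 105, 101, 120.3, 133 and 124 CPM in Ag+Costim replicates 1 to 5, without overlap, and the log2 difference was 0.72 (SE 0.20, edgeR BH = 0.201). Eprs, whose single protein charges both glutamate and proline and which is the only synthetase of this kind, measured 103, 274, 182, 121 and 241 CPM in Ag replicates 1 to 5 and 276, 267, 274, 360.3 and 314 CPM in Ag+Costim replicates 1 to 5. Ag replicate 2 lay inside the Ag+Costim range for Eprs, and the log2 difference was 0.69 (SE 0.27, edgeR BH = 0.256).

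Kars serves cytosol and mitochondria from alternative products of a single gene. It measured 67.8, 174, 144, 82.9 and 233 CPM in Ag replicates 1 to 5 and 209, 225, 234, 267 and 237 CPM in Ag+Costim replicates 1 to 5, with Ag replicate 5 inside the Ag+Costim range and a log2 difference of 0.74 (SE 0.30, edgeR BH = 0.263). Dars and Rars, for aspartate and arginine, measured 168 ± 73.0 CPM (Ag) and 271 ± 33.6 CPM (Ag+Costim) and 113 ± 62.1 CPM (Ag) and 167 ± 9.73 CPM (Ag+Costim) (SD, n = 5), with log2 differences of 0.69 and 0.56. Both overlapped through Ag replicate 5, and Rars also through replicate 2. Qars, for glutamine, was the cytosolic gene with the smallest difference, with 82.6, 128, 77.5, 99.4 and 152 CPM in Ag replicates 1 to 5 and 118, 117, 129, 116 and 133.8 CPM in Ag+Costim replicates 1 to 5. Ag replicate 5 was the highest of the 10 libraries for Qars, the log2 difference was 0.19 (SE 0.19, edgeR BH = 0.539), and it was -0.036 with plain total counts and -0.026 with upper quartile scaling. Mitochondria have no glutaminyl-tRNA synthetase, and their glutaminyl-tRNA is made from glutamyl-tRNA by an amidotransferase.

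The scaffolds of the complex were not called. Aimp1 measured 48.0 ± 21.4 CPM (Ag) and 57.4 ± 5.06 CPM (Ag+Costim), Aimp2 46.4 ± 32.3 CPM (Ag) and 71.4 ± 10.5 CPM (Ag+Costim) and Eef1e1 42.3 ± 23.4 CPM (Ag) and 53.9 ± 5.56 CPM (Ag+Costim), with log2 differences of 0.26, 0.62 and 0.35. All 3 overlapped between the groups.

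The 12 cytosolic enzymes outside the complex had a median log2 fold change of 0.66, and 2 of them did not overlap, again against 11.3%. Vars, for valine (chr17:35000987-35016322, plus strand), measured 151, 433, 368, 197 and 517 CPM in Ag replicates 1 to 5 and 536, 605, 666, 663 and 696 CPM in Ag+Costim replicates 1 to 5. It had the second highest difference of all members, 0.93 (SE 0.31, edgeR BH = 0.236), or 1.9-fold. Nars, for asparagine, measured 67.8, 166, 119, 94.1 and 188 CPM in Ag replicates 1 to 5 and 204, 205, 219, 251 and 238 CPM in Ag+Costim replicates 1 to 5, and every Ag+Costim library was above every Ag library, with a log2 difference of 0.82 (SE 0.26, edgeR BH = 0.225). Cars, for cysteine (chr7:143557230-143600090, minus strand), measured 22.2, 54.3, 44.2, 26.6 and 72.8 CPM in Ag replicates 1 to 5 and 77.6, 71.4, 76.8, 101 and 87.5 CPM in Ag+Costim replicates 1 to 5. It overlapped only because Ag replicate 5 exceeded Ag+Costim replicate 2 slightly, and its log2 difference was 0.91 (SE 0.30, edgeR BH = 0.230).

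Gars, for glycine, supplies both compartments like Kars and was the most abundant cytosolic member per length. It measured 136, 436, 256, 155 and 498 CPM in Ag replicates 1 to 5 and 395, 456, 444, 491 and 449.6 CPM in Ag+Costim replicates 1 to 5. Ag replicate 5 was the highest of all 10 libraries, replicate 2 lay inside the Ag+Costim range, and the log2 difference was 0.59 (SE 0.34, edgeR BH = 0.319). Wars, for tryptophan, is known to be induced by interferon gamma, and it measured 63.3, 129.6, 102, 77.5 and 145 CPM in Ag replicates 1 to 5 and 141, 151, 156, 166 and 175 CPM in Ag+Costim replicates 1 to 5. Ag replicate 5 overlapped with Ag+Costim replicate 1, and the log2 difference was 0.61 (SE 0.22, edgeR BH = 0.245). The 13 interferon gamma response genes examined beside it had a median log2 difference of 0.11, which was -0.17 with plain total counts, and none of them was free of overlap.

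Hars and Hars2, for histidine, lie head to head with 195 shared exonic bases, and reads of this unstranded library cannot be split between them there. Hars, the cytosolic enzyme, measured 68.1, 193, 109, 72.4 and 279 CPM in Ag replicates 1 to 5 and 189, 189, 186, 216 and 206 CPM in Ag+Costim replicates 1 to 5. Ag replicate 5 was far above every Ag+Costim library, replicate 2 lay inside their range, and the log2 difference was 0.45 (SE 0.36, edgeR BH = 0.443). Hars2, the mitochondrial enzyme, measured 38.7, 34.4, 32.7, 40.2 and 52.1 CPM in Ag replicates 1 to 5 and 53.1, 54.8, 50.1, 50.6 and 51.5 CPM in Ag+Costim replicates 1 to 5. For Hars2 only Ag replicate 5 overlapped, and the log2 difference was 0.39 (SE 0.14, edgeR BH = 0.245). The remaining cytosolic genes were Aars, Farsa, Farsb, Sars, Tars and Yars. Their log2 differences ran from 0.40 for Farsa to 0.80 for Aars, and all 6 overlapped. Farsa and Farsb encode the subunits of the phenylalanine enzyme, and their log2 differences were 0.40 and 0.62. By catalytic fold, the 9 cytosolic genes of class I had a median of 0.72 and the 10 of class II a median of 0.65, with the bifunctional Eprs in neither.

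The promoters of the cytosolic genes were read for the element through which ATF4 and C/EBP factors act together, TGATGNAA, since ATF4 is known to drive synthetase genes. RefSeq promoter windows of 300 bases around the gene start (GRCm38.p6) matched 27 members, 13 cytosolic and 14 mitochondrial. Not in that table were Cars, Hars, Hars2, Lars, Nars, Pars2, Rars, Vars and Wars. On either strand, TGATGNAA stood in 5 of the 13 cytosolic and in 0 of the 14 mitochondrial members, against 4.51% of 27025 genes. The narrower TGATGCAA, which it contains, stood in 4 of those 5 and in 1.03% of genes. Aars was the remaining match, and its sites are not shown. The sites of Gars, Iars (the gene with the largest difference), Tars and Yars are given here on the strand of the gene. Each has 10 flanking bases, with the motif or its reverse complement in capitals.
Gars: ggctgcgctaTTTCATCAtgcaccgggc
Iars: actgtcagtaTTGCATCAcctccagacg
Tars: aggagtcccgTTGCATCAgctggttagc
Yars: cgagctcagcTGATGCAAcccgacggga
They lie at chr6:55037961-55037988 (plus strand) for Gars, chr13:49682127-49682154 (plus strand) for Iars, chr15:11399656-11399683 (minus strand) for Tars and chr4:129189896-129189923 (plus strand) for Yars. Gars is the member that matches TGATGNAA without matching TGATGCAA. The 5 genes had log2 fold changes from 0.59 to 1.02 with a median of 0.78, beside 0.65 for the 8 cytosolic genes without a match. The latter ran from 0.19 to 0.91, so the ranges overlapped, and a match does not show binding. Aars, for alanine, measured 156 ± 68.1 CPM (Ag) and 272 ± 28.0 CPM (Ag+Costim), Tars, for threonine, 128 ± 55.7 CPM (Ag) and 219.6 ± 23.0 CPM (Ag+Costim) and Yars, for tyrosine, 82.2 ± 35.1 CPM (Ag) and 133.6 ± 15.9 CPM (Ag+Costim). Each of these 3 overlapped through Ag replicate 5 alone.

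The E-box CACGTG, which Myc and related factors bind and which reads the same on both strands, stood in 4 of 13 cytosolic members and in 1 of 14 mitochondrial members (Ears2), against 8.09% of genes. Aars, Iars and Tars held both elements. The cytosolic sites are shown because Myc, described below with the other genes of its network, is known to bind this element.
Aars: tcaaccctgtCACGTGacactccatg
Farsb: agacaggcatCACGTGagacagccca
Iars: ccaatcgccaCACGTGttgtttgtag
Tars: cgcctgtggcCACGTGgcgcacgcgc
They lie at chr8:111033686-111033711 (plus strand), chr1:78488921-78488946 (minus strand), chr13:49682051-49682076 (plus strand) and chr15:11399624-11399649 (minus strand). No binding data entered the comparison.

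Among the mitochondrial enzymes, Vars2 (chr17:35655634-35667592, minus strand) had the highest difference. It measured 22.9, 21.6, 28.2, 30.4 and 38.1 CPM in Ag replicates 1 to 5 and 42.6, 43.4, 51.0, 50.6 and 51.4 CPM in Ag+Costim replicates 1 to 5. The groups did not overlap, the log2 difference was 0.76 (SE 0.17, edgeR BH = 0.147), and DESeq2 gave an adjusted p of 0.00902. It shares 465 exonic bases with the overlapping gene Gm20483, as 13 members do with some neighbour, among them Aars with Exosc6 and Farsb with Sgpp2. Iars2 (chr1:185284726-185329396, minus strand) measured 56.9, 114, 90.5, 70.8 and 99.4 CPM in Ag replicates 1 to 5 and 121, 129.6, 131, 142 and 138 CPM in Ag+Costim replicates 1 to 5, without overlap and with a log2 difference of 0.61 (SE 0.19, edgeR BH = 0.214). It shares exonic bases with Rab3gap2, so its count could hold reads of that gene. Nars2 (chr7:96951505-97064758, plus strand) measured 13.4, 17.3, 13.7, 13.5 and 15.8 CPM in Ag replicates 1 to 5 and 17.4, 19.6, 18, 21.7 and 17.7 CPM in Ag+Costim replicates 1 to 5. Its groups were separated by less than 1 CPM, and the log2 difference was 0.36 (SE 0.13, edgeR BH = 0.247).

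Fars2, Wars2 and Lars2, for phenylalanine, tryptophan and leucine, had a fitted difference below 0. Fars2 measured 29.3, 36.8, 24.1, 34.7 and 40.9 CPM in Ag replicates 1 to 5 and 32.9, 30.0, 34.1, 29.2 and 30.4 CPM in Ag+Costim replicates 1 to 5, with the Ag+Costim libraries inside the Ag range and a log2 difference of -0.08 (SE 0.15, edgeR BH = 0.740). Wars2 measured 10.5, 5.57, 13.9, 14.4 and 11.3 CPM in Ag replicates 1 to 5 and 9.84, 10.6, 13.1, 11.8 and 10.1 CPM in Ag+Costim replicates 1 to 5, and the Ag+Costim libraries fell inside the Ag range, with a log2 difference of -0.01 (SE 0.24, edgeR BH = 0.990). Both signs changed under other settings, which are given at the end. The other mitochondrial genes (Aars2, Cars2, Ears2, Mars2, Pars2, Rars2, Sars2, Tars2 and Yars2) overlapped between the groups, with log2 differences from 0.18 for Ears2 to 0.58 for Rars2. Ears2, for glutamate, was at -0.079 with plain total counts and -0.050 with upper quartile scaling.

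Lars2, the mitochondrial leucine enzyme (chr9:123366927-123462666, plus strand), was by far the most abundant member. It ranked number 3 by mean CPM among all genes tested and measured 11767, 1744, 6999, 10095 and 1218 CPM in Ag replicates 1 to 5 and 5579.9, 5639, 5634, 6198 and 6079 CPM in Ag+Costim replicates 1 to 5. Ag replicates 2 and 5, highest for most cytosolic genes, were the lowest here, and the highest Ag library held 9.66 times the lowest, against 1.11 times in Ag+Costim. The Ag+Costim libraries fell inside the Ag range, and the log2 difference was -0.13 (SE 0.54, edgeR BH = 0.892). With voom, which gave little weight to Ag replicates 2 and 5, it was -0.71 (BH = 0.0126). Per length it reached 2639.6 ± 111 TPM in Ag+Costim, 101 times the median of the other 15 mitochondrial genes. In the lowest library 99.9% of its counts fell on the transcripts Lars2-201 (protein coding) and Lars2-209 (annotated as a nonsense-mediated decay target), but the split between them was unstable. Lars2-209 held 96.5, 0.0, 99.4, 97.4 and 66.1% of the counts in Ag replicates 1 to 5 and between 85.8% and 95.3% in Ag+Costim.

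Among 8625 other genes averaging at least 10 CPM, the pattern most like that of Lars2 over the 10 libraries was that of Gm23935, a short gene on chromosome 16 annotated as a miRNA, with Pearson r = 0.983 on log2 CPM. It measured 1113, 115, 534, 837 and 127 CPM in Ag replicates 1 to 5 and 503, 504, 544, 479 and 536 CPM in Ag+Costim replicates 1 to 5. Lars2 transcripts shared runs of at least 31 bases with 2 other genes, AA474408 and Gm15564. Gm15564 measured 136, 0.00945, 71.4, 109 and 0.0458 CPM in Ag replicates 1 to 5 and 68.7, 0.0333, 70.4, 68.4 and 73.0 CPM in Ag+Costim replicates 1 to 5, and was near 0 in Ag replicates 2 and 5, where Lars2 was also low, and in Ag+Costim replicate 2, where it was not. Gm26917, a long noncoding RNA listed on chromosome 17, ranged from 1154 to 2888 CPM. Their part in the Lars2 count was not tested, so sums and means over mitochondrial genes are given without Lars2 below.

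**Figure D3:**
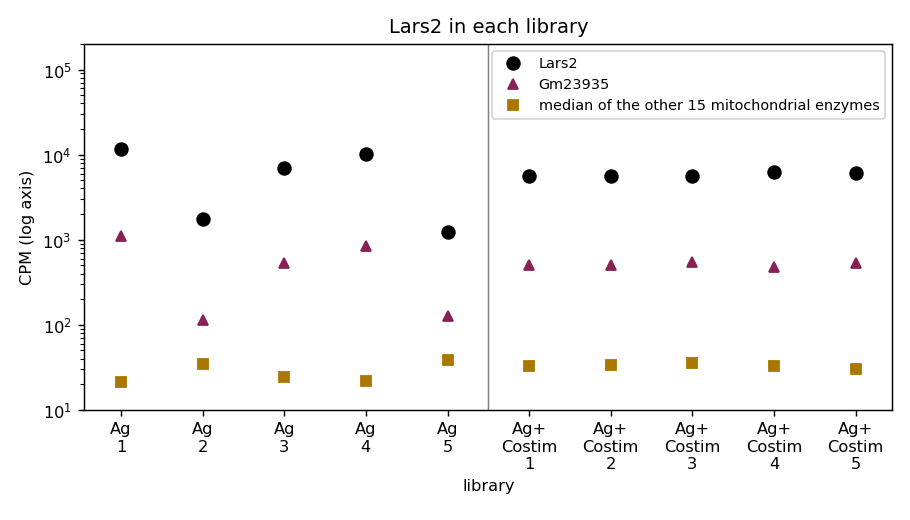
CPM (log axis) of Lars2, of Gm23935 and of the median of the other 15 mitochondrial synthetases in each of the 10 libraries. Lars2 and Gm23935 are both low in Ag replicates 2 and 5 and level across the Ag+Costim libraries.

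To set both compartments side by side, the log2 CPM values were averaged in each library. The mean over the 20 cytosolic genes was 6.16, 7.40, 6.94, 6.36 and 7.57 in Ag replicates 1 to 5 and 7.56, 7.59, 7.61, 7.85 and 7.75 in Ag+Costim replicates 1 to 5. Only Ag replicate 5 reached the range of Ag+Costim. The mean over 15 mitochondrial genes without Lars2 was 4.33, 4.89, 4.65, 4.47 and 5.12 in Ag and 5.04, 5.09, 5.14, 5.21 and 5.16 in Ag+Costim, again with overlap from Ag replicate 5 alone. The cytosolic mean exceeded the mitochondrial mean by 2.20 ± 0.317 in Ag and by 2.55 ± 0.0707 in Ag+Costim (log2 units, SD, n = 5). That gap was 1.83, 2.51, 2.29, 1.89 and 2.45 in Ag and 2.53, 2.50, 2.47, 2.64 and 2.59 in Ag+Costim. Its change of 0.35 was about as large as the SD within Ag. Ag replicate 2 lay inside the Ag+Costim range and replicate 5 just below it. With Lars2 included, the change was 0.35.

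The cell cycle genes ordered the Ag libraries as the cytosolic synthetases did. All 20 had a positive log2 difference and 6 were higher without overlap, against 75.6% and 11.3% of genes averaging at least 10 CPM. Their mean log2 CPM was 6.01, 9.01, 8.31, 6.13 and 9.08 in Ag and 9.03, 9.05, 9.01, 9.32 and 9.23 in Ag+Costim. Ag replicates 1 and 4 were lowest for both the synthetases and these genes, and replicates 2 and 5 were close to Ag+Costim for both. Myc measured 58.1, 70.9, 49.6, 46.6 and 80.2 CPM in Ag and 96.5, 98.3, 99.9, 101 and 109 CPM in Ag+Costim, without overlap, and Mki67, a marker of dividing cells, measured 93.4, 402, 241, 98.3 and 222 CPM in Ag replicates 1 to 5 and 455, 469, 416, 463 and 468 CPM in Ag+Costim replicates 1 to 5. The 10 genes of the Myc network, Myc among them, had a median log2 difference of 0.21, with 6 above and 4 below 0. Their mean log2 CPM was 4.51, 4.22, 4.22, 4.71 and 3.92 in Ag replicates 1 to 5 and between 4.38 and 4.70 in Ag+Costim, so that Ag replicates 1 and 4, lowest for the synthetases, were the highest Ag libraries here. The part of proliferation in the synthetase values was not tested.

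**Figure D4:**
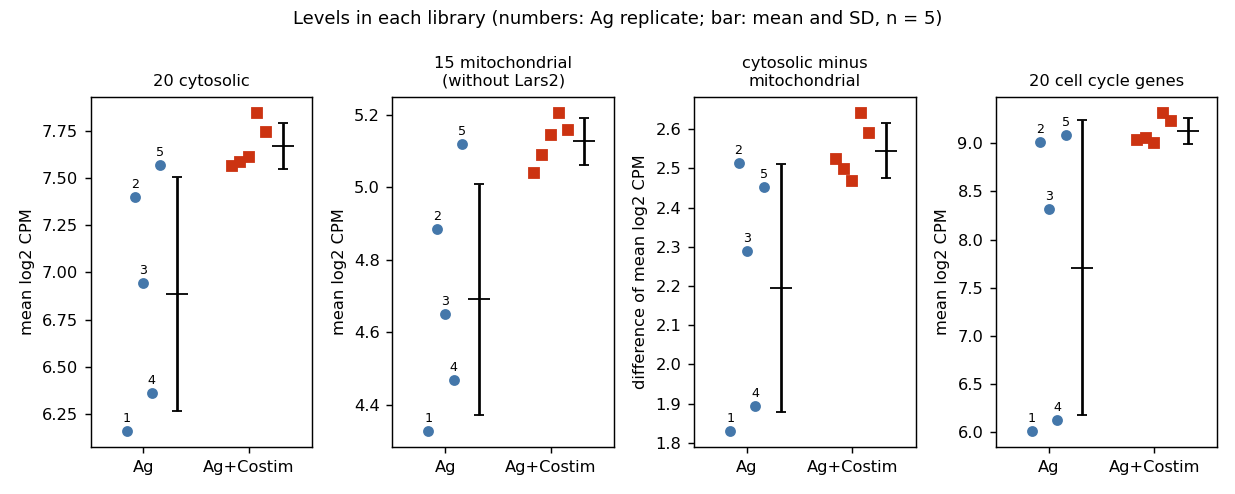
Mean log2 CPM in each library of the cytosolic and the mitochondrial synthetases, the gap between both, and the 20 cell cycle genes, with the mean and SD of each group (n = 5). Ag replicates 1 and 4 are lowest in all 4 panels, and Ag replicates 2 and 5 approach the Ag+Costim libraries.

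Pairs of enzymes for the same amino acid gave a comparison within each library, with Eprs set against both Ears2 and Pars2. In 14 of 16 pairs the cytosolic gene had the higher log2 fold change, with a median excess of 0.35. The exceptions were Rars and Rars2 and Sars and Sars2, with differences of -0.02 and -0.02. The ratio itself did not overlap between the groups for 2 pairs. The log2 ratio of Cars to Cars2 was -0.123, 0.391, 0.714, 0.293 and 0.621 in Ag and 1.02, 0.962, 1.09, 1.33 and 1.13 in Ag+Costim. That of Farsa to Fars2 was 1.05, 1.36, 1.41, 0.901 and 1.34 in Ag and 1.56, 1.68, 1.55, 1.86 and 1.88 in Ag+Costim. Cars2 shares 422 exonic bases with Naxd, and Fars2 501 with Nrn1. No ratio was lower in every Ag+Costim library.

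Per length, cytosolic messages were more abundant than mitochondrial ones. In TPM (counts divided by transcript length and scaled to the same sum in each library) in Ag+Costim, the cytosolic genes ran from 50.9 ± 5.03 for Lars to 320.5 ± 21.5 for Gars (mean ± SD, n = 5), with a median of 107. The most abundant after Gars were Vars at 267 ± 26.1, Sars at 219.6 ± 9.44 and Dars at 213 ± 23.3 TPM, and the latter pair differed by less than the spread. The mitochondrial genes apart from Lars2 ran from 3.09 ± 0.358 TPM for Mars2 to 73.2 ± 7.03 TPM for Tars2. The cytosolic gene of a pair was the more abundant in 15 of 16 pairs, with a median ratio of 4.66, and Lars and Lars2 were the exception. Ratios were widest for Mars over Mars2, 35.9 ± 3.73, and Wars over Wars2, 18.1 ± 2.75. They were narrowest for Tars over Tars2, 1.29 ± 0.0937, and Cars over Cars2, 1.48 ± 0.160. Farsa and Farsb, whose proteins pair in equal number, stood at 94.5 ± 6.36 and 197 ± 22.4 TPM. These levels sum all transcripts of a gene, coding or not. Protein-coding transcripts held 17.0 ± 5.19% of Farsa counts and 86.5 ± 2.85% of Farsb counts in Ag+Costim. That share was 23.0% for Cars2, 30.7% for Yars2 and 48.5% for Ears2, so levels and ratios of such genes are not those of coding message.

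**Figure D5:**
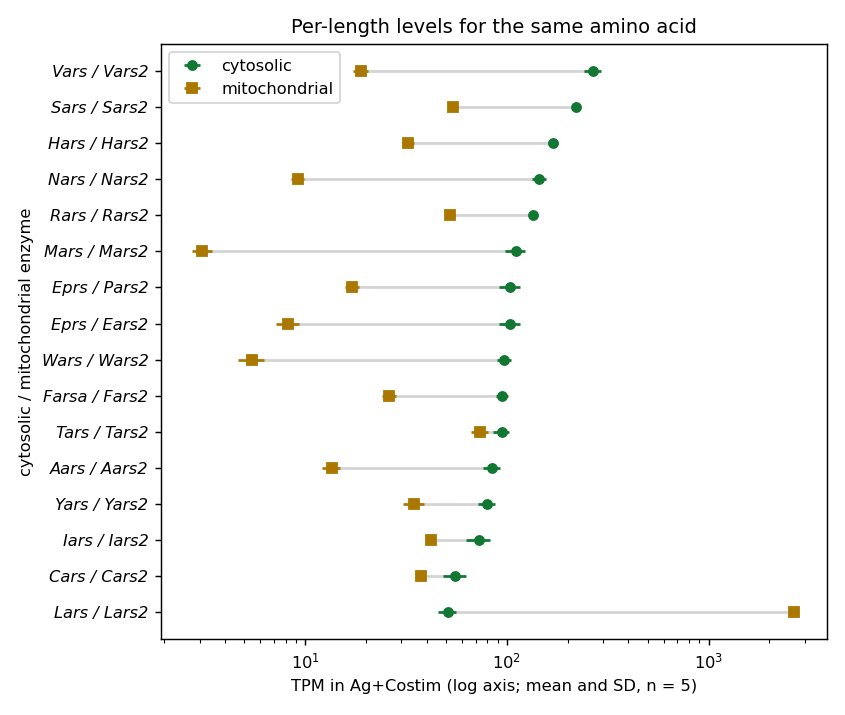
TPM in Ag+Costim (log axis, mean and SD of 5 libraries) of the cytosolic and mitochondrial enzyme for each amino acid, ordered by the cytosolic level. The cytosolic gene is higher in 15 of 16 pairs, and Lars2 is the exception.

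Genes that act beside the synthetases were read from the same fit, and none was called by edgeR at BH under 0.05. The 26 tRNA maturation genes had a median log2 difference of 0.45. Among them 4 were higher without overlap, against 4.48% of all genes and 11.3% of genes averaging at least 10 CPM. Of these 4, the 3 with the largest difference were Xpot, the exporter of tRNA from the nucleus, with 53.3 ± 16 CPM (Ag) and 86.2 ± 12.3 CPM (Ag+Costim), Trmt61a, which methylates adenosine in tRNA, with 7.90 ± 1.58 CPM (Ag) and 12 ± 0.642 CPM (Ag+Costim), and Elac2, which trims the tRNA 3′ end, with 48.9 ± 14.5 CPM (Ag) and 73.1 ± 4.48 CPM (Ag+Costim). The median of 21 genes of RNA polymerase III and its factors, which transcribe tRNA genes, was 0.34. Higher without overlap were 4 of them, against the same 4.48% and 11.3%. The 4 encode subunits of TFIIIC, which binds the internal promoter of tRNA genes. Gtf3c5 measured 51.3 ± 23.9 CPM (Ag) and 89.2 ± 3.34 CPM (Ag+Costim), Gtf3c1 51.6 ± 8.93 CPM (Ag) and 80.5 ± 3.96 CPM (Ag+Costim) and Gtf3c3 27.7 ± 6.11 CPM (Ag) and 42.6 ± 3.87 CPM (Ag+Costim).

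The 10 other tRNA charging genes had a median of 0.38, with none free of overlap. The 5 cytosolic elongation factors, which deliver charged tRNA to the ribosome and move it along, had a median of 0.10, or -0.16 with plain total counts. Eef1a1, the carrier of charged tRNA, measured 4067 ± 781 CPM (Ag) and 3874 ± 83.0 CPM (Ag+Costim). The 9 mitochondrial translation factors had a median of 0.29, and none was free of overlap.

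Amino acid supply was also read. Of 13 amino acid transporters, 4 were higher without overlap, against 4.48% of all genes and 11.3% of genes averaging at least 10 CPM. The median over all 13 was 0.36. The fitted difference was below 0 for 3 of the 13, 2 of them at an unadjusted p under 0.05 in edgeR. Slc38a9, a lysosomal arginine sensor, was called lower by DESeq2, with 23.2 ± 8.59 CPM (Ag) and 14.1 ± 1.91 CPM (Ag+Costim), and its groups overlapped. Slc7a5, the large neutral amino acid carrier, measured 13.1, 78.7, 56.2, 12.2 and 82.9 CPM in Ag replicates 1 to 5 and 101, 120.0, 117, 138 and 113 CPM in Ag+Costim replicates 1 to 5, with a log2 difference of 1.28 (SE 0.51, edgeR BH = 0.258). Slc7a1, a carrier of cationic amino acids, measured 28.3 ± 9.17 CPM (Ag) and 43.9 ± 2.61 CPM (Ag+Costim), and Slc38a2, a carrier of small neutral ones, 97.1 ± 8.77 CPM (Ag) and 137 ± 12.9 CPM (Ag+Costim). The 26 ATF4 targets and eIF2 alpha kinases had a median of 0.32, with 19 above and 7 below 0. DESeq2 called 3 of them higher and 2 lower, beside 1.79% and 12.5% of 43379 genes. Without overlap, 4 were higher and Ddit3 was lower. Of all genes 4.48% were higher and 1.13% lower, and of genes averaging at least 10 CPM 11.3% were higher. Gcn1l1, which activates the kinase Gcn2 on ribosomes, measured 66.5 ± 11.4 CPM (Ag) and 108 ± 17.2 CPM (Ag+Costim), Aldh18a1, an enzyme of proline synthesis, 95.8 ± 26.4 CPM (Ag) and 153 ± 9.0 CPM (Ag+Costim), and Atf4 itself 98.1 ± 26.8 CPM (Ag) and 115 ± 12.2 CPM (Ag+Costim), with overlap. Asns, the asparagine synthetase and a classical ATF4 target, measured 0.766, 14.3, 11.1, 0.817 and 24.1 CPM in Ag replicates 1 to 5 and 29.2, 21.9, 18.5, 34.4 and 27.4 CPM in Ag+Costim replicates 1 to 5, with overlap.

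Use of transcripts within the synthetase genes was not called different. Of 35 members with more than 1 transcript tested, edgeR's diffSpliceDGE called 0 (BH under 0.05 with a transcript share moving by over 10 percentage points), where it called 0.297% of 10441 genes. Unadjusted p was under 0.05 for 4 members, and the lowest member BH was 0.600, for Aars. The largest shifts were those of Cars2-205, annotated as a nonsense-mediated decay target, from 23.7 ± 27.1% of counts in Ag to 48.3 ± 8.31% in Ag+Costim, and of Farsb-201, from 27.4 ± 22.1% to 50.6 ± 14%. Shares of Cars2-205 in Ag were 40.9, 63.3, 7.17, 3.97 and 3.22%, so Ag replicate 2 was above, replicate 1 inside and the others below the Ag+Costim range. limma's diffSplice called this gene (BH = 0.00392) and no other member, where it called 1.39% of genes.

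Transcripts with a retained intron averaged a smaller share of the cytosolic synthetase counts in Ag+Costim, though the groups overlapped and the difference was not tested. Summed over the 20 genes they held 8.91, 3.83, 7.51, 8.30 and 3.41% in Ag replicates 1 to 5 and 3.57, 3.39, 4.27, 4.17 and 3.51% in Ag+Costim, or 6.39 ± 2.58% and 3.78 ± 0.407% (SD, n = 5). Ag replicates 1, 3 and 4 were above every Ag+Costim library, and replicates 2 and 5 were inside their range. Over 15 mitochondrial genes without Lars2, the shares were 3.85 ± 1.62% and 2.27 ± 0.509%. The largest shares among the cytosolic genes were those of Farsa, Qars and Mars, with 72.3, 47.8 and 25.4% in Ag and 61.7, 35.6 and 15.6% in Ag+Costim. The share over all genes is not given here, so the difference is not shown to be particular to the synthetases.

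The splicing table held 597 events in 35 member genes, of which 545 were core exons, 27 tandem starts and 16 tandem ends. It gives a single value of PSI (percent spliced in, as a fraction) per group, so these differences have no replicate check. PSI differed by more than 0.05 for 13 events in 7 members, or 2.18% of events, against 11.9% of all 138940 events in the table. The latter share covers all event types and genes and is not matched to the members for event type or expression level. Of the core exons, 539 had a PSI of at least 0.9 in both groups. The largest difference was in Nars2, where the downstream start segment (chr7:96951562-96951944) stood at a PSI of 0.818 (Ag) and 0.502 (Ag+Costim), and the upstream one (chr7:96951505-96951561) at 0.181 (Ag) and 0.498 (Ag+Costim). In Pars2, the proline enzyme of mitochondria, the nearer of its alternative 3′ end segments (chr4:106653118-106655280) stood at 0.513 (Ag) and 0.370 (Ag+Costim). In Wars, the end segment at chr12:108860034-108860333 stood at 0.551 (Ag) and 0.641 (Ag+Costim), and its alternative ends 4 bases further on. In Dars, the inner start segment at chr1:128417152-128417359 stood at 0.701 (Ag) and 0.614 (Ag+Costim). Coordinates are mm10.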

How the data were processed

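The members and gene lists were chosen with earlier results of these data known. According to the submitters' processing notes, the authors aligned reads with HISAT2 2.1.0 to mm10, handled them with SAMtools 1.9 and quantified with StringTie 2.1.0. The deposited gene and transcript tables hold estimated counts from StringTie, not normalized and not whole reads; they were rounded. The deposited splicing table holds, per the file headers, PSI as a fraction with 1 value per group, and its columns of the authors' own comparison (a difference, a probability and an entropy) were not used. Rows named by a bare number (26248, between 0.0458% and 0.308% of counts) were left out.

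Groups follow the labels, and the Naive libraries were not analysed here. In R 4.3.3, edgeR 4.0.16 (filterByExpr, TMM, robust quasi-likelihood test, Benjamini-Hochberg adjustment over all genes tested) gave the main result, and DESeq2 1.42.0 and limma 3.58.1 (voom with quality weights) gave alternatives. Transcript usage was tested with diffSpliceDGE in edgeR and with diffSplice in limma. Where 2 groups did not overlap, every Ag+Costim library was above (or below) every Ag library. Exact permutation tests were two-sided on log2(CPM + 0.5). CPM used TMM library sizes, and TPM divided counts by transcript length. Python 3.11.15 with NumPy 2.4.6 computed summaries, and the edgeR tests were tested on simulated data. Values with an error are mean ± SD over 5 libraries.

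Given in full were members without overlap and at least 10 CPM in the higher group, the 3 highest and 3 lowest log2 fold changes, and enzymes with a special role; of related lists, up to 3 genes each without overlap. Dars, Rars, the scaffolds, Eef1a1, Atf4, Asns and Slc38a9 were named after their values were seen. Other alternatives were scaling, the filter on low counts, single libraries left out and the replicate block. Some items are not reported here.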

Additional observations from a re-analysis of the deposited data

Results flagged for a closer look

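Of 72 sets of 5 libraries examined (36 members in 2 groups), 1 had a library far from the others by Dixon's criterion, which chance meets in about 1 of 20 sets. Pars2, the proline enzyme of mitochondria, reached 22.7 CPM in Ag+Costim replicate 5, above the other Ag+Costim libraries.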

How the results depend on the processing

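The count of members that edgeR called at BH under 0.05 was 0 under every scaling, filter, block and single-library omission tried, 34 without Ag replicates 2 and 5 together, 7 with DESeq2 and 33 with limma voom, of which Lars2 was lower in the first and last. Members higher at an unadjusted p under 0.05 in edgeR numbered 22, where 7.89% of all genes were higher. They numbered 14 under upper quartile scaling and from 12 (without Ag+Costim replicate 4) to 29 (without Ag replicate 5) with 1 library left out. Shares over all genes at that p under those other settings are not given here, so these counts do not set the members apart. Members without overlap numbered 8, with 16 under total counts, 4 under upper quartile scaling and 21 without the filter. They numbered 32 without Ag replicates 2 and 5, and from 7 to 18 with 1 library left out, the last without Ag replicate 5. Of all genes, 4.48% were higher without overlap in the main fit, 2.76% under total counts and 1.48% under upper quartile scaling. Without Ag replicates 2 and 5 that share was 18.7% of 33480 genes. Shares without the filter or with 1 library left out are not given here, so those counts do not set the members apart. The cytosolic median was 1.34 without Ag replicates 2 and 5, the Ag libraries highest for most cytosolic genes. It was 1.32 with voom, which gave those libraries little weight. The mitochondrial median was 0.18 under total counts, 0.73 without the filter, 0.78 without those libraries and 0.80 with voom. limma's diffSplice called 1 member for transcript usage. Under total counts the RNA polymerase III median was 0.13 and the interferon gamma median -0.17.

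Signs turned for Qars (-0.036 under total counts, -0.026 under upper quartile) and Ears2 (-0.079 and -0.050). Fars2 was 0.21 without the filter, 0.21 without Ag replicates 2 and 5, and from -0.18 to 0.021 with 1 library left out. Lars2 was 0.20 without the filter and from -0.37 to 0.22 with 1 left out, and Wars2 was 0.38 without the filter and from -0.15 to 0.11. The causes were not tested. In the fit with the replicate number as a block, Lars2 was 0.35 and Wars2 0.055, 21 members had an unadjusted p under 0.05, and 0 were called. The share of all genes at that p in the block fit is not given here. Deviations of same-numbered libraries correlated from -0.33 to 0.18, and 1 of 10 libraries was closest to its own number, so the libraries share only a number. The few libraries and the spread within Ag limit precision.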
